A study of Mus musculus with 64 samples.

Results

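Adipokines are proteins that fat cells release into the blood. 9 genes for such proteins (Lep, Adipoq, Retn, Rbp4, Cfd, Nampt, Serpina12, Apln and Rarres2) were followed here in RNA sequencing libraries of omental adipose tissue, liver and skeletal muscle. They were listed by symbol, with earlier results of these data known, and all 9 were found among the 36332 gene IDs of the deposited table. The mice had body-wide inactivation of Myc (MycKO, here KO) or were wild type (WT), and were 5 or 20 months old. Per the labels, KO mice came from a cross of 2 lines on B6.129 backgrounds, 1 with the allele Gt(ROSA)26Sortm1(cre/ERT2)Tyj and 1 with Myctm2Fwa, so that a Cre recombinase expressed from the Rosa26 locus in many cell types removes a floxed Myc when tamoxifen is given. WT mice are labelled C57/B6, so genotype and strain background cannot be told apart. Both genotypes are labelled as having received 5 daily tamoxifen injections (75 mg/kg in corn oil) at weaning, once they weighed 15 g or more. In each tissue the 20-month groups held 5 libraries per genotype. The 5-month groups held 6 libraries, except for KO muscle with 4.

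Leptin (Lep) signals the size of fat stores to the brain and lowers food intake, and adiponectin (Adipoq) raises insulin sensitivity in liver and muscle. Resistin (Retn) and retinol binding protein 4 (Rbp4) are tied to insulin resistance in mice, adipsin (Cfd) is the serine protease that starts the alternative complement pathway, and chemerin (Rarres2) attracts immune cells and acts on fat cell formation. Visfatin (Nampt) is the enzyme that limits the salvage of NAD and is found in most cells. Vaspin (Serpina12) is a protease inhibitor, and apelin (Apln) is a peptide ligand of the receptor encoded by Aplnr. The liver is a main source of circulating Rbp4 and also makes chemerin.

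The libraries held 15.4 to 28.5 M reads assigned to genes. Values are the CPM of the deposited table, a read signal that the authors scaled per library. Myc was lower in KO than in any WT library in adipose tissue at 5 months (2.87 to 10.5 against 11.2 to 22.8 CPM) and in liver at both ages, while the KO and WT ranges overlapped in adipose tissue at 20 months and in muscle at both ages. Of the 22 adipose libraries, 4 held transcripts of 7 epididymis markers at summed levels of 919 to 6161 CPM, against 0.998 CPM at most in the other 18. These 4 were K5F4284, K5F5218 and K5F5248 (KO) and W5F5299 (WT), all at 5 months, and the tissue label gives omental fat for each. The 10 adipocyte markers checked, Plin1 and Cidec among them, were all present in all 22 adipose libraries, and their sum was 12333 to 13101 CPM in the 3 KO libraries with epididymis transcripts and 23729 to 35240 CPM in the other 3 young KO libraries. 12 libraries had Xist, the transcript of the inactive X chromosome in females; all were of 5-month mice, 2 in each young group of each tissue. Age and sex are therefore partly confounded. In muscle, library W18S42 held 6 hepatocyte markers at 2692 CPM, against at most 43.8 CPM in the other 19, and library W5S5299 held epididymis markers at 126.5 CPM.

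In young WT adipose tissue the genes spanned a wide range. Per kb of exon, the level of Cfd was 9522 ± 2457 CPM per kb (SD, n = 6), which was followed by Adipoq with 1521 ± 405 and Retn with 659 ± 173 CPM per kb. The ranges of these 3 genes over libraries did not overlap. Rbp4 (242 ± 109 CPM per kb), Lep (107 ± 102) and Rarres2 (87.6 ± 23.5) came next, and neighbours in that order overlapped, as did Retn and Rbp4. Nampt stood at 18.6 ± 4.35 and Apln at 2.08 ± 2.10 CPM per kb. Serpina12 was close to absent from this fat: it had no read in 5 of the 6 libraries and 2 reads in the sixth, and its highest value over all 22 adipose libraries was 0.299 CPM (12 reads). Vaspin was therefore below the limit for testing in adipose tissue, and 8 of the 9 genes were tested there. Cfd alone took 0.877% to 1.604% of all reads on genes in young WT fat.

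**Figure D1:**
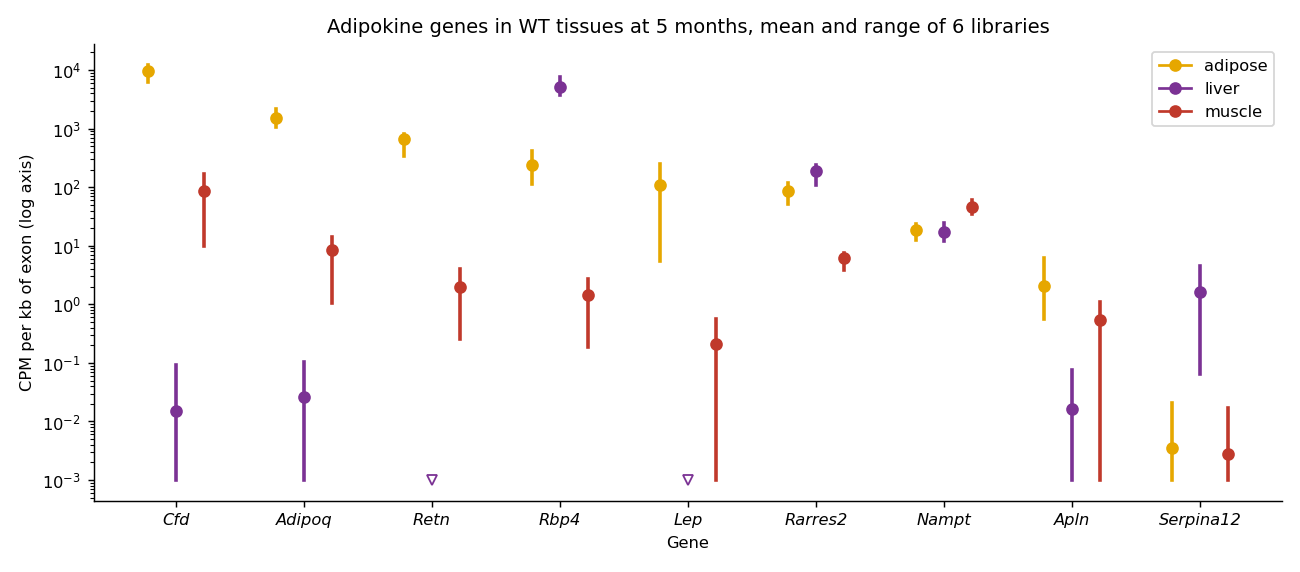
Level of each gene in WT mice at 5 months, in CPM per kb of merged exon length on a log axis; points are means and lines the range over 6 libraries of adipose tissue, liver or muscle, and open triangles mark genes with no read in a tissue. Values under 0.001 are drawn at 0.001. Cfd, Adipoq and Retn lead in adipose tissue, Rbp4 is highest in liver and Nampt in muscle. The higher mean of Rarres2 in liver than in fat holds in the authors' scaling and not with plain CPM of the recovered reads. With plain CPM the difference of Nampt between fat and muscle was smaller and not called.

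The order at 20 months was not the same. In WT fat the level of Cfd was 1431 ± 689 CPM per kb (n = 5) and that of Adipoq 1061 ± 164, with overlapping ranges. Lep came next with 399 ± 121 CPM per kb and stood above the ranges of Rbp4 (159 ± 22.3) and Retn (124 ± 46.6). Lep was thus below Retn in young and above Retn in old WT fat.

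The sequences before the transcription start are shown for the 3 genes whose levels differed most with age in fat, and for Serpina12, which did so in liver. Each line is the 250 bases upstream of the start, 5′ to 3′ on the gene's strand, from RefSeq (GRCm38.p6). They lie at chr6:29059971-29060220 (Lep, plus strand), chr8:3655520-3655769 (Retn, plus), chr10:79890603-79890852 (Cfd, plus) and chr12:104044444-104044693 (Serpina12, minus). Capitals mark matches to TTGCNNAA, a form bound by C/EBP factors.
Lep: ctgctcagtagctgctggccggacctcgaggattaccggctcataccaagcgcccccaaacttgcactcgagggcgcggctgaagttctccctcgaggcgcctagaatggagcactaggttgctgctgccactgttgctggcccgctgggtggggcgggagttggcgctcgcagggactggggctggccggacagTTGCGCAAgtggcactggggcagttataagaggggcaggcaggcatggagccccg
Retn: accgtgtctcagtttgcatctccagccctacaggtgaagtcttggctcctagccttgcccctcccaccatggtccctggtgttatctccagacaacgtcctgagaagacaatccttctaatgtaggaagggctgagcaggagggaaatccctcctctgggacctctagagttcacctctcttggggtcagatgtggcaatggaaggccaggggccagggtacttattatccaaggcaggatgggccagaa
Cfd: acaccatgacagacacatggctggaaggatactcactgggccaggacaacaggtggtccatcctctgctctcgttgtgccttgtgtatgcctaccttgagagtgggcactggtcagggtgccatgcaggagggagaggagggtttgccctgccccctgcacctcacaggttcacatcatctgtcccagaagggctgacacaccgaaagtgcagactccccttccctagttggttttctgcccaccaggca
Serpina12: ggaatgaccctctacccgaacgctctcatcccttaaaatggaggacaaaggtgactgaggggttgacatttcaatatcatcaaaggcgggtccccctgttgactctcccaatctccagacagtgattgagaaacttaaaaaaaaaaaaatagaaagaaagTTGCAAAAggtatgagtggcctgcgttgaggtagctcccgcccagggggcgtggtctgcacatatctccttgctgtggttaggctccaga
Windows were found for 8 of the 9 genes (9 windows, since Rbp4 has a pair of starts), and 3 motifs were searched on both strands. TTGCNNAA was in the windows of Lep (bases -55 to -48 from the start), Serpina12 (-90 to -83) and 1 of the Rbp4 windows (-128 to -121), and in 9.56% of all 32851 windows of this length. TATAAA was in the same Rbp4 window and in 12.4% of all windows. CACGTG, the E-box bound by Myc with Max, was in no window of the 8 genes and in 6.02% of all windows. A match is a description of the letters and was not tested as a binding site.

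The next comparison asked how adipokine expression in fat differed between 5 and 20 months. In WT adipose tissue Cfd, Retn and Nampt fell and Apln rose, which is 4 of the 8 tested genes; of all 14286 genes tested, 10.8% were called in this comparison (7.41% higher and 3.36% lower). In KO adipose tissue Cfd and Retn fell and Lep rose, 3 of 8 against 14.2% of all genes (10.5% up with age, 3.75% down). When the 2 KO groups were fitted alone, none of these 3 KO calls was kept (adjusted p = 0.0548 for Cfd, 0.0647 for Retn and 0.0593 for Lep). A gene was called at a Benjamini-Hochberg adjusted p under 0.05 in limma, over all genes tested in the tissue. Differences are given as log2 fold changes of CPM + 1 with their SE, a scale that understates changes of genes with few reads. The median over the 8 genes was -0.49 in WT and 0.21 in KO fat, against 0.01 and 0.06 over all genes. The libraries carry separate codes but the labels do not state that each is a separate mouse, so the p-values measure the spread between these libraries.

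Cfd showed the largest fall. In WT fat its values at 5 months had a lowest of 5870.0, a median of 8754 and a highest of 11384 CPM, and the 5 libraries at 20 months had 587, 974, 1162, 1641 and 2230.1 CPM. Every old library was below every young one, as held for 4.65% of the genes tested. The log2 fold change was -2.83 (SE 0.47, adjusted p = 0.00092), a mean ratio of 6.66 between young and old fat. In KO fat Cfd had a lowest of 2334, a median of 5020.4 and a highest of 11358 CPM at 5 months, and 565, 832, 1288, 2467 and 3471 CPM at 20 months. The KO groups overlapped, since old libraries K18F27 and K18F28 were above K5F5218, the lowest young one. The difference was -1.94 (SE 0.47, adjusted p = 0.0113), and without K18F26 the adjusted p was 0.0518. Without the libraries with epididymis transcripts, Cfd differed by -2.90 in WT and -2.55 in KO fat (adjusted p = 0.000704 and 0.00927).

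Retn followed a like course. In WT fat it had a lowest of 537, a median of 1092 and a highest of 1304 CPM at 5 months, and 109, 134, 205, 267 and 268 CPM at 20 months. All old libraries were lower than all young ones, as held for 4.65% of the genes tested. The log2 fold change was -2.43 (SE 0.56, adjusted p = 0.01). In KO fat the young libraries had a lowest of 286, a median of 567 and a highest of 2126 CPM, and the old ones 40.7, 43.2, 112, 315 and 390 CPM. Here the groups overlapped at 286 to 390 CPM, and the log2 fold change was -2.30 (SE 0.56, adjusted p = 0.0123). Left out one at a time, the libraries K18F26 and K18F30 were those without which the KO call for Retn was lost, and the highest adjusted p was 0.0553. In WT fat, by contrast, leaving out any 1 of the 11 libraries kept both Cfd and Retn below an adjusted p of 0.05.

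Leptin expression was higher in old fat of both genotypes. In WT fat Lep had a lowest of 18.2, a median of 306 and a highest of 833 CPM at 5 months, and 922, 1163, 1284, 1303 and 2012 CPM at 20 months. All old libraries stood above all young ones, as held for 7.06% of the genes tested, yet the difference of 2.91 (SE 0.95) gave an adjusted p of 0.0517 and was not called. In KO fat Lep had a lowest of 23.7, a median of 301 and a highest of 708 CPM when young, and 594, 1233, 1308, 1788 and 1915 CPM when old. That rise, 2.98 (SE 0.95), was called (adjusted p = 0.0412), though library K18F28 with 594 CPM was below K5F5218 with 708 CPM. The 3 lowest Lep values of the 12 young fat libraries were in libraries with epididymis transcripts, and the fourth such library had the highest KO value. Without these 4 libraries the WT difference was 2.28 and called (adjusted p = 0.0227) and the KO difference was 1.98 and not called (0.0808); their part in the result was not tested. Leaving out 1 library at a time, Lep was called in 2 of 11 fits in WT (adjusted p 0.0294 to 0.128) and 4 of 11 in KO fat (0.0184 to 0.106). The young values ranged 45.8-fold in WT fat, and the old ones 2.18-fold.

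Apelin and visfatin differed in WT fat. Apln had a lowest of 1.79, a median of 4.46 and a highest of 19.2 CPM in young and 8.65, 15.6, 15.9, 17.3 and 21.1 CPM in old WT fat. The single young library W5F5277, with 19.2 CPM, lay within the old range, and the rise was 1.48 (SE 0.45, adjusted p = 0.0384). In KO fat the difference was 0.999 (SE 0.45, adjusted p = 0.126). Nampt fell in WT fat from 62.7 to 118 CPM (median 100.2) to 46.9, 51.9, 54.0, 55.5 and 56.7 CPM (-0.78, SE 0.23, adjusted p = 0.036). The groups did not overlap, with all old libraries lower, as held for 4.65% of the genes tested. In KO fat Nampt had 52.0 to 159.6 CPM when young and 70.3 to 87.4 CPM when old, and the difference was -0.25 (SE 0.23, adjusted p = 0.474). Without the libraries with Xist, neither Apln nor Nampt was called in WT fat (adjusted p = 0.204 and 0.147), while Cfd and Retn were. With 1 library left out at a time, Apln was called in 4 and Nampt in 3 of 11 fits.

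Adiponectin, Rbp4 and chemerin were not called with age. Adipoq had a median of 2025 CPM in young and 1548 CPM in old WT fat, with 1072 to 1636 CPM in the old libraries and 1447 to 2951 CPM in the young ones (-0.49, SE 0.30, adjusted p = 0.277). In KO fat the difference was 0.18, with a 95% interval of -0.45 to 0.81. Rbp4 differed by -0.49 in WT (SE 0.42, adjusted p = 0.443) and 0.24 in KO fat (SE 0.42, adjusted p = 0.719). Rarres2 differed by 0.21 in WT (adjusted p = 0.659) and by 0.82 in KO fat (SE 0.29, adjusted p = 0.0626), where old libraries had 232, 245, 253, 263 and 399 CPM and young ones 78.0 to 364 CPM. The 2 lowest young KO values of Rarres2 were in libraries with epididymis transcripts, and without the libraries with epididymis transcripts the KO difference was 0.27 (adjusted p = 0.44). Without the libraries with Xist it was 1.17 and called (adjusted p = 0.00588). For none of the 8 genes was the difference between the WT and KO age effects called, nor for any of the 14286 genes (0%). The largest such difference was that of Cfd, 0.89 (SE 0.66, adjusted p = 0.998).

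**Figure D2:**
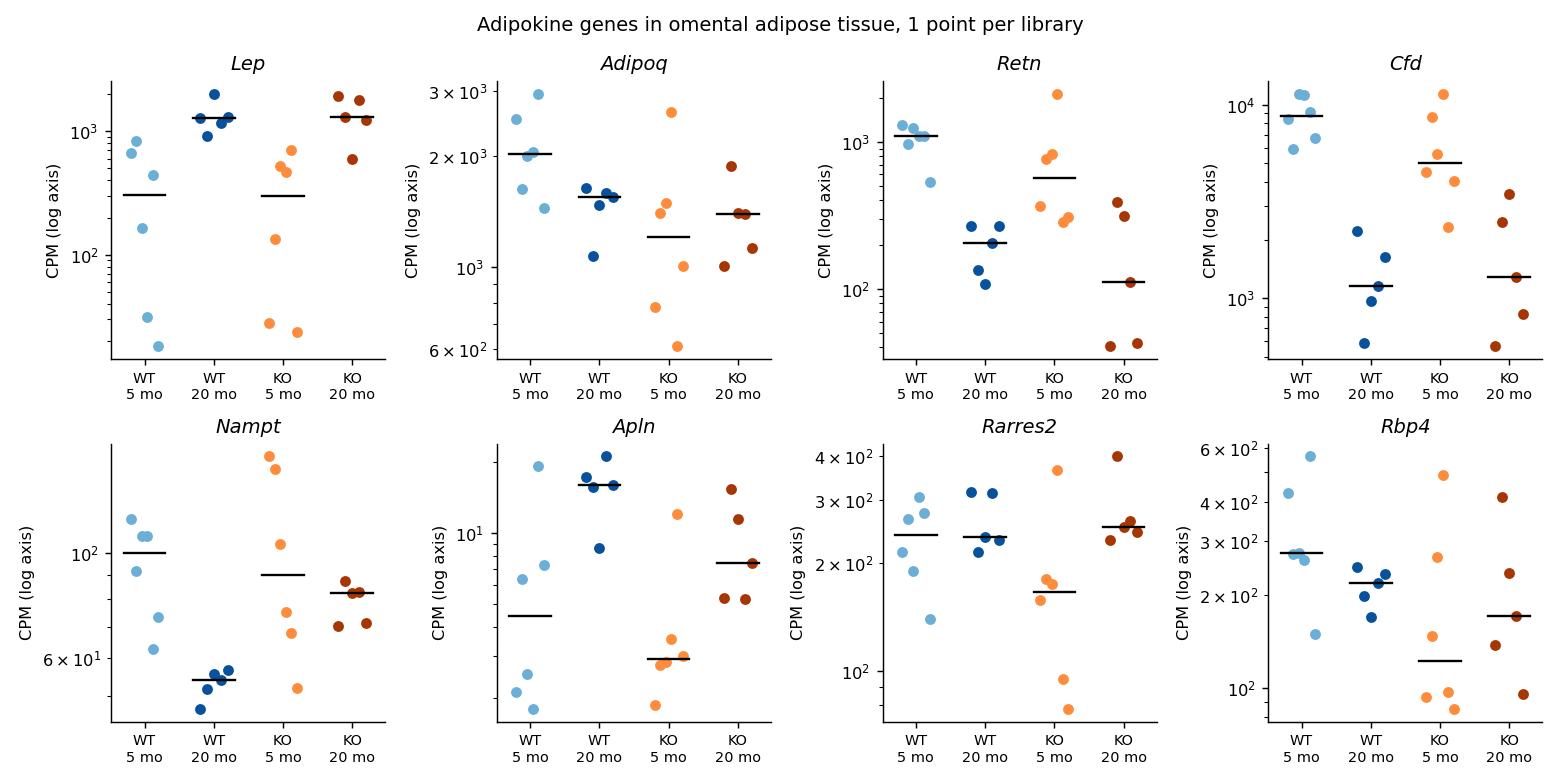
Values of 8 adipokine genes in omental adipose tissue, in CPM on log axes whose ranges differ between panels; each point is a library of WT or KO mice at 5 or 20 months, and black lines are group medians. In WT fat the old libraries lie below all young ones for Cfd, Retn and Nampt and above all young ones for Lep. Of all genes tested, 4.65% lie below and 7.06% above in this way.

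Ratios within a library do not depend on how the authors scaled it. The ratio of Lep to Adipoq transcripts was 0.0126 to 0.511 in young and 0.732 to 1.36 in old WT fat, with no overlap. In KO fat it was 0.0235 to 1.16 when young and 0.424 to 1.91 when old. The ratio of Cfd to Adipoq was 3.09 to 5.70 in young and 0.547 to 1.36 in old WT fat, and 3.71 to 6.16 and 0.562 to 2.48 in KO fat, with no overlap in either genotype. The ratio of Retn to Adipoq was 0.369 to 0.624 in young and 0.0736 to 0.172 in old WT fat, and 0.307 to 0.807 against 0.0383 to 0.225 in KO fat, again without overlap. So Cfd and Retn were lower relative to adiponectin in every old library than in any young one of the same genotype. In KO fat the CPM of both genes overlapped between the ages. How many other genes separate the ages by their ratio to Adipoq was not counted.

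Adipocyte markers gave no called difference with age beside these results. Of 10 markers, 0 were called in WT or KO fat, with median log2 fold changes of -0.29 and 0.15, and their sum was 21935 to 36028 CPM in young and 17289 to 23091 CPM in old WT fat. Lymphocyte markers differed: of 5 tested T cell markers, Cd3e, Cd3g, Cd4 and Cd8a rose in WT fat, and among B and plasma cell markers, Cd79a, Ms4a1 and Mzb1 did. In KO fat Cd79a and Ms4a1 rose, as did Adgre1, 1 of 6 macrophage markers, while 0 of the T cell markers were called. These markers were named after their values were seen. Of 6 mesothelial markers, Krt19 alone was called and fell by 1.85. In tissue pieces, fewer cells of a type and less RNA per cell cannot be told apart, and the part of these markers in the adipokine results was not tested.

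Genotype was compared next, to ask whether loss of Myc went with other adipokine levels. At 5 months 0 of the 8 genes were called in adipose tissue, where 0.105% of all genes were. An unadjusted p under 0.05 in limma was found for 2 of them and for 1692 of all 14286 genes tested. 7 of the 8 differences were negative, with a median of -0.61 against -0.04 over all genes. Adipoq had 610, 778, 1009, 1401, 1495 and 2634 CPM in KO and 1447, 1631, 1997, 2054, 2522 and 2951 CPM in WT fat. The groups overlapped, and the difference of -0.79 (SE 0.29) gave an adjusted p of 0.329. Rbp4 had 85.1, 92.8, 96.5, 148, 265 and 491 CPM in KO and 149.6, 260, 272, 274, 429 and 563 CPM in WT fat (-0.92, SE 0.40, adjusted p = 0.379). The 3 lowest KO values of Adipoq and of Rbp4 were those of the libraries with epididymis transcripts, which also had the lowest summed adipocyte markers.

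What remained of these differences turned on which libraries entered. Without the libraries with Xist, Adipoq (-1.18, adjusted p = 0.0383) and Rbp4 (-1.60, adjusted p = 0.0372) were both called, and 3 of the 4 KO libraries left are those with epididymis transcripts. The share of all genes called in that smaller set is not given here, so these calls cannot be set against it. Without the libraries with epididymis transcripts, the differences were -0.31 and -0.35 (adjusted p = 0.667 and 0.758). The 95% intervals for the other 6 genes at 5 months all held 0, for instance -1.98 to 1.79 for Lep and -1.60 to 0.25 for Cfd, so these libraries leave a wide range of differences possible. The 10 adipocyte markers, 0 of them called, had a median difference of -0.64.

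At 20 months 0 of the 8 genes were called in fat, as were 0% of all genes. Only Nampt of the 8 had an unadjusted p under 0.05 in limma, as did 321 of all 14286 genes tested. Nampt had 70.3, 71.1, 82.3, 82.7 and 87.4 CPM in KO and 46.9, 51.9, 54.0, 55.5 and 56.7 CPM in WT fat. Every KO library stood above every WT library, as held for 0.644% of the genes tested, but the difference of 0.56 (SE 0.24, 95% interval 0.06 to 1.06) gave an adjusted p of 1. Apln differed by -0.80 (SE 0.47) with overlapping groups, 5.25 to 15.3 CPM in KO and 8.65 to 21.1 CPM in WT fat. The differences of Lep, Adipoq, Rarres2, Rbp4 and Cfd lay between -0.19 and 0.22, and that of Retn was -0.62 (SE 0.59).

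**Figure D3:**
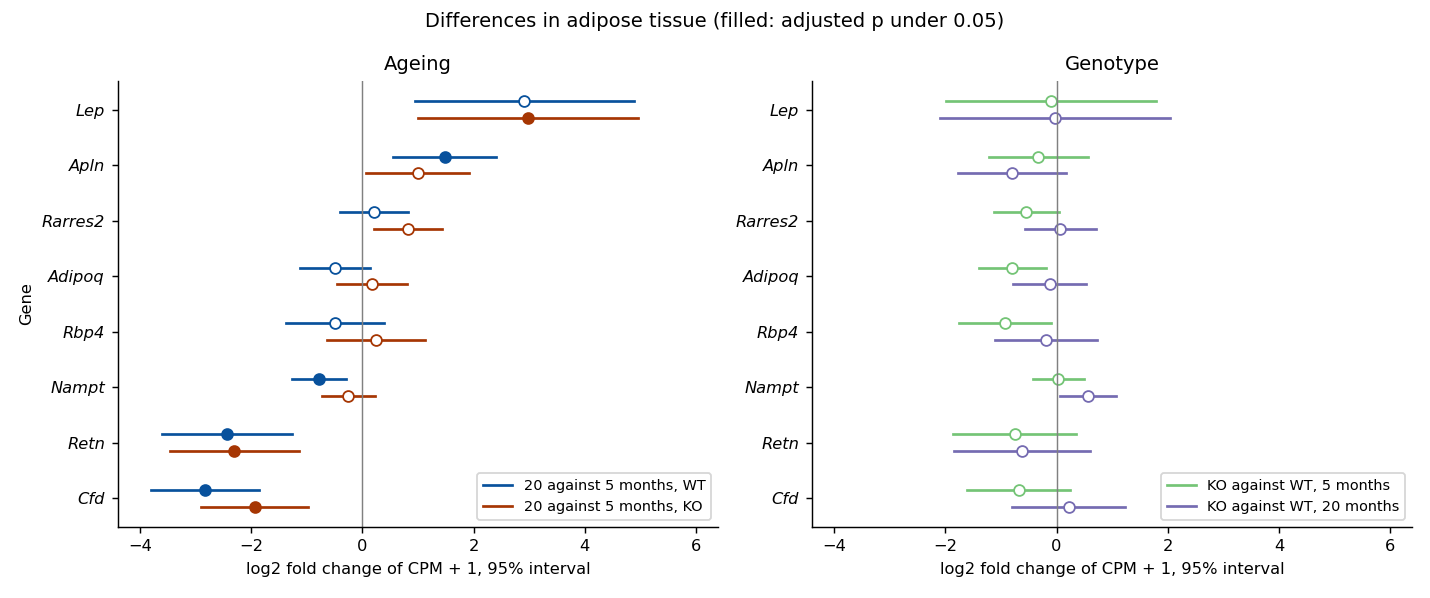
Log2 fold changes of CPM + 1 with 95% intervals for the 8 tested adipokine genes in adipose tissue, for age (left, 20 against 5 months in WT and KO) and genotype (right, KO against WT at 5 and 20 months); filled points have an adjusted p under 0.05. Filled points stand on the left alone: Cfd and Retn are lower with age in both genotypes, Nampt is lower and Apln higher in WT, and Lep is higher in KO. The KO calls are lost when the KO groups are fitted alone. The WT calls of Nampt and Apln are lost without a filter, with a sex covariate or without the libraries with Xist.

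Around the group means, some of the genes moved together from library to library in fat. Over the 22 adipose libraries the within-group deviations of Retn and Cfd had a Pearson correlation of 0.88, those of Adipoq and Rbp4 0.87, and those of Retn and Rbp4 0.86. Lep and Cfd had -0.09, and Nampt and Apln -0.53, the lowest of the 28 pairs. These are descriptions over libraries that share depth and tissue composition. Among 14278 other genes, the one closest to Lep was Prr32 (0.91), that closest to Adipoq was Bcap31 (0.94) and that closest to Rbp4 was Mpc1 (0.91), a subunit of the mitochondrial pyruvate carrier. Closest to Retn was Chchd6 (0.89), to Rarres2 Chchd3 (0.96), both genes of the inner mitochondrial membrane organizing system, to Nampt Glud1 (0.92), to Cfd 4930486L24Rik (0.92) and to Apln Apol10b (0.90).

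Genes around the adipokines in their pathways were mostly not called in fat with age, as held for all genes. The share called over all genes was 10.8% in WT and 14.2% in KO fat. Of 16 tested receptors and binding partners, Ccrl2, a chemerin-binding receptor, rose in WT fat (0.78, SE 0.23, adjusted p = 0.0368) and C3ar1, a receptor of the complement fragment made downstream of adipsin, rose in KO fat (1.04, SE 0.31, adjusted p = 0.0325); each was the only one called in its genotype. Of 10 transcription factors known to act on adipokine or fat cell genes, Klf15 alone was called: it fell by 1.62 in WT (adjusted p = 0.0118) and by 1.20 in KO fat (0.0422). Of 9 leptin signalling genes, Irs1 alone was called, in WT fat, where it fell by 1.17 (adjusted p = 0.00613). Of 10 other NAD enzymes, Nmnat3 alone was called, in WT fat, where it fell by 0.83 (adjusted p = 0.00971). Of 8 other genes of the alternative complement pathway none was called in fat in either genotype, with median differences of 0.26 in WT and 0.16 in KO.

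Other secreted proteins of fat also differed with age. Sfrp5, a secreted inhibitor of Wnt signalling, had 1.19 to 125 CPM in young and 322 to 518 CPM in old WT fat, a rise of 4.62 (SE 0.96, adjusted p = 0.0054), and it rose by 4.51 in KO fat (adjusted p = 0.00572). Agt, the angiotensin precursor, fell from 225 to 448 CPM to 35.5 to 117 CPM in WT fat (-1.95, SE 0.35, adjusted p = 0.00195) and by 1.82 in KO fat (adjusted p = 0.00333). Lcn2, lipocalin 2, fell by 1.88 in KO fat (adjusted p = 0.0209). KO against WT gave 0 called genes in all 6 of these lists in fat at either age.

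In liver 4 of the 9 genes were above the limit for testing: Rbp4, Rarres2, Nampt and Serpina12. At 5 months the WT liver had 6859 ± 1975 CPM of Rbp4 (n = 6), 512 ± 163 CPM of Rarres2 and 87.7 ± 23.8 CPM of Nampt. Lep and Retn had no read in any of the 12 young liver libraries. A count of 0 allows up to 0.265 CPM, the worth of 3 reads in the library where a read weighs most, and this covers counting error only.

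Serpina12 was the member that changed with age in liver. In WT liver it had a lowest of 0.238, a median of 4.92 and a highest of 16.4 CPM at 5 months, and 22.4, 40.97, 52.8, 52.9 and 61.5 CPM at 20 months. The groups did not overlap, with all old libraries higher, as held for 2.16% of the genes tested, and the rise was 3.11 (SE 0.69, adjusted p = 0.00922), the only call among 4 genes in a comparison in which 7.19% of all genes were called (2.83% up with age, 4.36% down). In KO liver Serpina12 had a lowest of 1.36, a median of 4.76 and a highest of 58.7 CPM when young and 17.7, 20.5, 20.7, 56.0 and 70.2 CPM when old. One young KO library, K5L5218, had 58.7 CPM while the others had at most 12.7 CPM. The KO difference was 2.10 (SE 0.69, adjusted p = 0.0965) in a comparison with 2.99% of all genes called, and without K5L5218 it was 2.69 and called (adjusted p = 0.0117). The difference between the genotypes' age effects was -1.01 (SE 0.97, adjusted p = 0.991). So vaspin transcripts were found in the liver of these mice and not in their omental fat above 0.299 CPM.

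Rbp4 was not called in liver with age in either genotype. The WT libraries had 5146 to 10090 CPM (median 6285) at 5 months and 4010, 4223, 4238, 5421 and 5522 CPM at 20 months (-0.52, SE 0.19, adjusted p = 0.0937). In KO liver the old libraries, 3891 to 5173 CPM, were all below the young ones, 5264 to 8495 CPM, as held for 2.17% of the genes tested; the difference was -0.47 (SE 0.19, adjusted p = 0.178). Rarres2 differed by -0.11 in WT and 0.04 in KO liver, and Nampt by -0.26 in both, with 95% intervals within -0.63 and 0.46. KO against WT gave 0 calls of 4 genes at 5 months, where 0.0696% of all genes were called, and 0 at 20 months (0.0232%), and 0 and 0 of them had an unadjusted p under 0.05. The largest of these 8 genotype differences was 0.54 for Serpina12 at 5 months (SE 0.66).

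Low adipokine signals in liver differed between the ages below the limit for testing. Cfd had 0 to 2 reads (at most 0.137 CPM) in the 12 young liver libraries and 5 to 49 reads (0.256 to 3.57 CPM) in the 10 old ones, with no overlap. How many other genes below the limit for testing separate the ages in this way was not counted. Apln had at most 3 reads in young and 2 to 14 reads in old WT liver. Among the adipocyte markers in liver, Plin1, the coat protein of fat cell droplets, was under 1 CPM in every liver library. In WT liver Cidea, a droplet protein, rose by 5.89 (adjusted p = 1.08e-05). Fabp4, a fatty acid binding protein, had a log2 fold change of -0.88 there (adjusted p = 0.0138). These were 2 of 9 tested markers called in WT liver. Cidea also rose in KO liver, by 4.42 (adjusted p = 0.000321). The part of fat cells in these low values was not tested.

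Lists around the adipokines gave few calls in liver, all with age. The share called over all genes was 7.19% in WT and 2.99% in KO liver. Of 14 receptors and binding partners, Ccrl2 fell in WT (-0.59, adjusted p = 0.0457) and Cmklr1, the main chemerin receptor, in KO liver (-0.72, adjusted p = 0.0446). Of 10 transcription factors, Zfp423 rose in both genotypes (1.31 and 0.83) and Cebpd fell in WT liver (-1.36). Irs1 and Stat5a of the 9 leptin signalling genes rose in WT liver (0.70 and 0.67). Of 9 NAD enzymes, Nnmt, which methylates nicotinamide, fell in WT liver from 181 to 682 CPM to 95.2 to 172 CPM (-1.91, adjusted p = 0.00413), and Nmrk1 rose (0.68). Of 7 other complement genes, Cfp, the properdin gene, fell in both genotypes (-1.14 and -1.16), Cfi in WT (-0.45) and Cfb in KO liver (-0.54). None of the 14 other secreted proteins was called in liver.

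**Figure D4:**
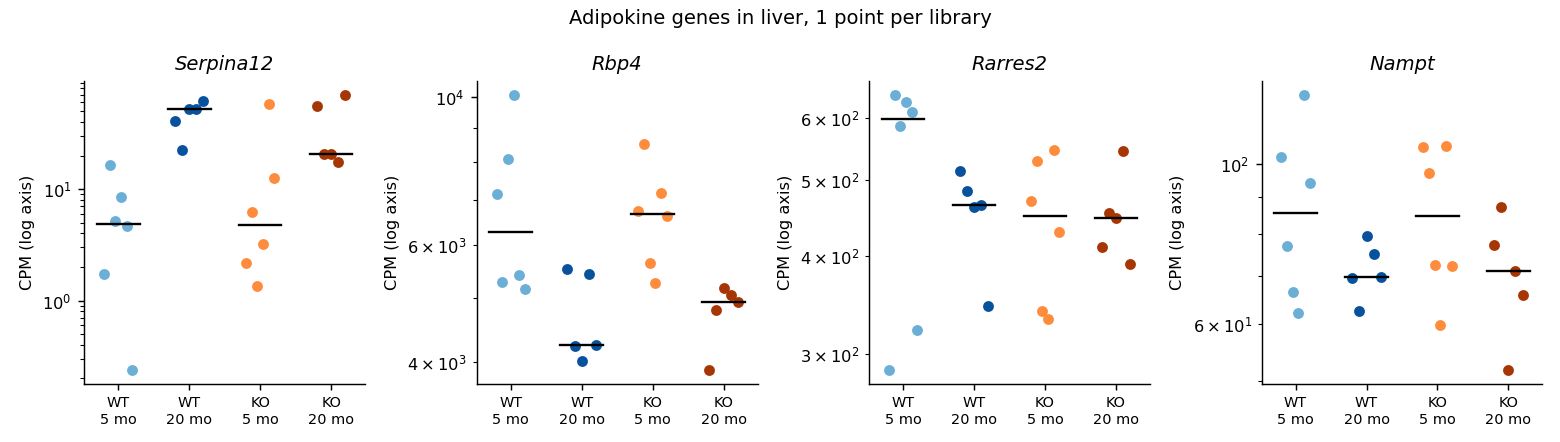
Values of Serpina12, Rbp4, Rarres2 and Nampt in liver, in CPM on log axes whose ranges differ between panels; each point is a library of WT or KO mice at 5 or 20 months, and black lines are group medians. For Serpina12 all 5 old WT libraries lie above all 6 young ones, and 1 young KO library stands at 58.7 CPM.

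In muscle 8 of the 9 genes were tested, mostly at levels far below those of fat. Nampt was higher than in fat in the authors' scaling, a difference not called with plain CPM, and the ranges of Apln overlapped. Nampt had 228 ± 53.8 CPM in young WT muscle (n = 6). In WT muscle Lep rose and Cfd fell with age, 2 of 8 genes where 18.6% of all genes were called (10.9% higher and 7.68% lower). Lep had 0 to 1.86 CPM (median 0.413, at most 27 reads) in young and 1.45, 5.27, 5.38, 6.90 and 9.86 CPM (29 to 170 reads) in old WT muscle, and the groups overlapped at 1 library. The rise was 1.94 (SE 0.62, adjusted p = 0.0349). Cfd had 9.03 to 154 CPM (median 78.0) in young and 5.58, 9.20, 12, 25.03 and 34.1 CPM in old WT muscle (-2.02, SE 0.61, adjusted p = 0.028). Of 11 fits that each left out 1 library, 3 called Lep and 5 called Cfd, and the highest adjusted p was 0.0811 and 0.0729. The direction was the same in all 11 for both genes. Both genes were called without W5S5299, the library with epididymis transcripts, and neither without W18S42.

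The other 6 genes were not called in WT muscle. Retn had a difference of -0.94 (SE 0.40, adjusted p = 0.1) and Adipoq of -0.69 (SE 0.48, adjusted p = 0.323), with 9.39 to 19.3 CPM of Adipoq in 5 young libraries and 1.48 CPM in W5S5041, against 3.4 to 10.3 CPM in old muscle. Rbp4 had 126.8 CPM in W18S42, the library with hepatocyte markers, and 0.406 to 1.28 CPM in the other 4 old WT libraries. Its difference was 0.63 with W18S42 and -0.61 without it, and neither was called. Nampt differed by -0.15 (95% interval -0.45 to 0.15) and Rarres2 by 0.05 (-0.39 to 0.49).

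In KO muscle 0 of 8 genes were called with age, where 5.57% of all genes were, and 0 had an unadjusted p under 0.05 in limma. Lep had 0.924, 1.80, 4.19 and 4.69 CPM in young and 0.436, 0.597, 13.7, 16.3 and 16.9 CPM in old KO muscle, so that the old libraries fell on both sides of the young ones (0.84, SE 0.68, adjusted p = 0.45). Cfd had 32.0, 59.5, 69.2 and 267 CPM in young and 24.2, 24.4, 26.6, 42.1 and 46.4 CPM in old KO muscle (-1.27, SE 0.67, adjusted p = 0.235). KO against WT gave 0 calls at 5 months (0% of all genes) and at 20 months (0.0302%), and 0 of the 8 genes had an unadjusted p under 0.05 at either age. The difference between the WT and KO age effects was -1.10 (SE 0.92, adjusted p = 0.999) for Lep.

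**Figure D5:**
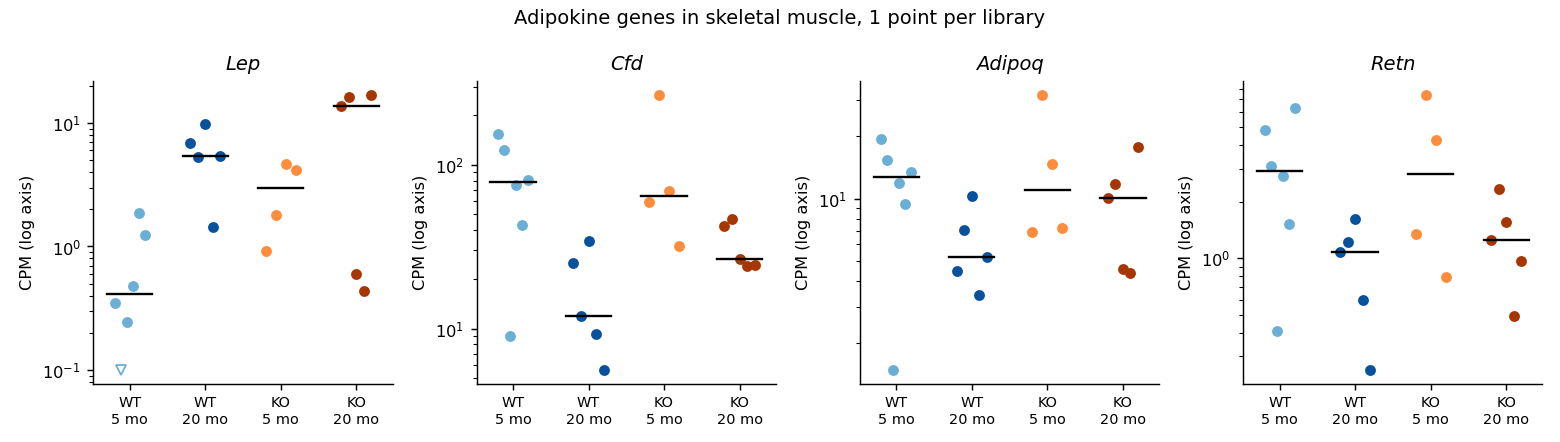
Values of Lep, Cfd, Adipoq and Retn in skeletal muscle, in CPM on log axes whose ranges differ between panels; each point is a library of WT or KO mice at 5 or 20 months, black lines are group medians, and the open triangle is a library with no Lep read, drawn at 0.1 CPM. Old WT libraries are mostly above the young ones for Lep and below them for Cfd, and the 5 old KO libraries split for Lep into 3 above 13 and 2 below 1 CPM.

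Markers of other cells moved with age in WT muscle as well, where 18.6% of all genes were called (10.9% higher and 7.68% lower). Of the 10 adipocyte markers, of which Lpl and Pnpla2 are also expressed by muscle fibres, Adrb3, Cidea, Plin4 and Pnpla2 fell, and the sum was 2314 to 4603 CPM in young and 2210.4 to 2641 CPM in old WT libraries. Of 6 macrophage markers C1qa, Cd68 and Mrc1 fell, of 6 fibroblast markers Col1a1 and Pi16, and of 6 endothelial markers Esam, Pecam1 and Vwf. In these marker lists the names were taken after the values were seen, and their part in the results for Lep and Cfd was not tested. Of 15 tested receptors and binding partners Ccrl2 rose (0.84) and Cap1, a proposed resistin receptor, fell (-0.39). 4 of 10 transcription factors fell, with Cebpd (-2.82, adjusted p = 0.0156), Foxo1 (-1.70) and Cebpb (-1.55) furthest. Of 9 leptin signalling genes Socs3, a feedback inhibitor of leptin signalling, fell by 2.44 (adjusted p = 0.0189), Irs2 by 1.16 and Stat3 by 0.67. Cfp and C5ar1 of 7 complement genes fell by 1.35 and 1.19, as did Retnla, a resistin-like gene, by 1.32. None of the 9 NAD enzymes was called.

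Tissues were set side by side in young WT mice. Against liver, fat was higher for Lep, Adipoq, Retn, Cfd and Apln and lower for Rbp4 and, in the authors' scaling only, Rarres2. That is 7 of 8 tested genes where 69.7% of all genes were called, 35.7% higher and 34.1% lower. Cfd had the largest difference (13.04, SE 0.44), with 5870.0 to 11384 CPM in fat and at most 0.0833 CPM in liver. Rbp4 was lower in fat, with a log2 fold change of -4.47 (adjusted p = 5.2e-10), with 149.6 to 563 CPM against 5146 to 10090 CPM in liver. Nampt did not pass the test in the authors' scaling (0.10, adjusted p = 0.657, 95% interval -0.31 to 0.52), but with plain CPM of the recovered reads it was higher in fat and called (1.23, adjusted p = 1.58e-05). Rarres2 had a log2 fold change of -1.11 (adjusted p = 0.000336) in the authors' scaling, but with plain CPM, which shift the median of all genes by 0.99, the difference was 0.03 (adjusted p = 0.901). The results of Nampt and Rarres2 against liver thus depend on the scaling.

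Against muscle, fat was higher for 7 of the 8 genes and lower for Nampt, and all 8 were called, with 68.9% of all genes (38.8% higher and 30.2% lower). Retn (8.11), Adipoq (7.56) and Cfd (7.12) had the largest differences. Muscle held 177 to 301 CPM of Nampt and fat 62.7 to 118 CPM (-1.28, adjusted p = 1.04e-05). Apln had 0 to 3.43 CPM in muscle and 1.79 to 19.2 CPM in fat (1.28, SE 0.42, adjusted p = 0.0107). With the number in the library code as a replicate block, the call of Apln was lost. Plain CPM shift the median of all genes by 0.75 in this comparison, and with them Nampt differed by -0.41 and was not called (adjusted p = 0.0719).

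3 of the genes share sequence positions with another gene. Nampt overlaps the RNA gene Gdap10 (at most 4.81 CPM), Serpina12 overlaps Gm31271 (at most 0.255 CPM) and Rarres2 overlaps Lrrc61 (at most 35.8 CPM). The libraries were made strand-specific, but the use of strand in counting is not given in the sources used here, so reads in the shared stretches could have been counted for either gene.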

How the data were processed

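The series holds poly-A RNA sequencing libraries (64 in 12 groups), made with a directional kit and sequenced on Illumina instruments, per the labels' protocols. The deposited values are a read signal per gene that the authors scaled by 1 factor per library and named CPM, per the file headers. The columns sum to 0.529 to 1.64 M, so the factor is not the plain library total, and what set it is not given in the sources used here. Whole reads were recovered for 100% of values (within 0.02 reads). The submitters' processing notes name the builds GRCm38.p6 and mm10; the aligner and the annotation are not given in the sources used here. Gene IDs were matched to a RefSeq table of GRCm38.p6 (35336 of 36332 distinct IDs had a symbol), and positions come from it. Merged exon lengths come from a GENCODE annotation of the same build.

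Log2(CPM + 1) was fitted with limma 3.58.1 (R 4.3.3) over the 4 groups of a tissue, with an intensity trend and no covariate, on genes above 1 CPM in at least 5 (adipose tissue, liver) or 4 (muscle) libraries. This left 14286, 12924 and 13237 genes. Tissues were compared over the 18 young WT libraries (14087 genes, above 1 CPM in at least 6). The fit was tested on simulated data. Intervals are 95%. Alternatives were a pseudocount of 0.1, no filter, plain CPM of the recovered reads, edgeR 4.0.16 and DESeq2 1.42.0 on recovered reads, a sex covariate (Xist at 10 CPM or more), leaving out libraries with Xist or adipose libraries with epididymis transcripts (more than 10 CPM summed; the muscle library W5S5299, also above this, was left out only in turn), the compared groups alone, and each library left out in turn. No batch is labelled. The members, the lists around them and the markers were chosen with earlier results of these data known. Genes named beside the members are the called genes of each list (at most the 3 with the largest log2 fold change per comparison) and, for each member, the gene whose within-group deviations correlate best with its own. No pair of libraries in a group agreed within sampling noise (lowest chi-square per degree of freedom 14.5). Some genes of the lists and the counts that rest on them are not reported here.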

Additional observations from a re-analysis of the deposited data

Results flagged for a closer look

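Each gene was checked in each group of 4 to 6 libraries for 1 library far from the others (Dixon's ratio at the 95% level), in 80 sets of values; chance alone marks about 1 in 20 sets, and 8 were found. In adipose tissue Adipoq was low in the old WT library W18F22 (1072 CPM, others 1477 to 1636) and Retn was low in the young WT library W5F5299 (537 CPM, others 969 to 1304), which also held epididymis transcripts. Apln was high in the young KO library K5F5218 (12.1 CPM, others 1.86 to 3.55), also one with epididymis transcripts, and Rarres2 in the old KO library K18F27 (399 CPM, others 232 to 263), which had hepatocyte markers at 729 CPM. For scale, old KO liver had means of 449 CPM of Rarres2 and 120284 CPM of these markers. The part of liver RNA in K18F27 was not tested. In liver Rbp4 was low in the old KO library K18L06 (3891 CPM, others 4794 to 5173) and Rarres2 in the old WT library W18L05 (345 CPM, others 461 to 514). In muscle Adipoq was low in the young WT library W5S5041 (1.48 CPM, others 9.39 to 19.3), where Cfd (9.03 CPM) and Retn (0.411 CPM) were also the lowest of their group. Rbp4 was high in the old WT muscle library W18S42 (126.8 CPM, others 0.406 to 1.28), which held hepatocyte markers at 2692 CPM.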

How the results depend on the processing

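In adipose tissue the 4 calls of WT ageing became 2 (Retn and Cfd) without a filter, with the sex covariate and without the libraries with Xist. The 3 calls of KO ageing became 0 when the compared groups were fitted alone, and the 0 calls of KO against WT at 5 months became 2 (Adipoq and Rbp4) without the libraries with Xist. In liver the 1 call of WT ageing became 3 without a filter (with Cfd and Apln) and 2 with DESeq2 (with Rbp4); the 0 calls of KO ageing became 1 without a filter (Cfd), with plain CPM of recovered reads (Serpina12) and without the libraries with Xist (Rbp4). In muscle the 2 calls of WT ageing became 0 without a filter and 1 without the libraries with Xist (Cfd) or with the groups alone (Lep). With 1 library left out at a time, the counts ranged from 2 to 5 in WT and 0 to 4 in KO fat with age, from 0 to 1 in KO liver and from 0 to 2 in WT muscle. WT fat gave 2 (Retn and Cfd) without W18F21, W18F22, W18F24, W18F25, W5F5041 or W5F5042. KO fat gave 0 without K18F26 and 1 without K18F30, and KO liver 1 without K5L5218. WT muscle gave 0 without W18S42, W18S72, W5S5004, W5S5007 or W5S5042 and 1 without W18S41, W18S45 or W18S66. Rarres2 in fat against liver turned to 0.0304 with plain CPM of recovered reads. Apart from the scaling and the smaller sets, the cause was not tested. The shares of all genes called under these alternatives are not given here.

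With the number in the library code as a replicate block, fat against liver gave 7 calls and fat against muscle 7, the latter without Apln (1.01, adjusted p = 0.0637). The block was not used for the results, since the labels do not say whether a shared number is a shared mouse. Of 14 pairs of young WT libraries that share a number across tissues, 11 had deviations correlated above 0.1 (range -0.07 to 0.32). Pairs with other numbers had -0.28 to 0.26 (median -0.05), and Xist status matched in all 14 pairs with a shared number. These values do not settle whether the numbers pair the libraries. Between groups of a tissue no paired analysis was possible because the codes share no number.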
